A study of Mus musculus with 7 samples.

Results

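The cells described here are mature neutrophils of spleen and blood, set against each other in healthy mice. The cells were chosen by UMIs of marker genes. They were taken as neutrophils where S100a8 and S100a9 together gave at least 3% of a cell's unique molecular identifiers (UMIs, each counting 1 captured transcript) and Cd79a, Cd79b, Cd3e and Nkg7 together gave fewer than 3 UMIs, and as mature where Camp and Ngp gave under 0.5% and Retnlg under 2% of UMIs. This left 5377 cells, 3579 from blood and 1798 from spleen, of 11813 deposited cells in these libraries and 21763 in the whole series. Both groups came from untreated male C57BL/6J mice, and cells had been sorted as CD11b+ Ly6G+ and propidium iodide negative before droplet sequencing on the 10X platform. Each tissue was sequenced in 2 runs, and per the study's methods each library pooled 3 mice, aged 6 weeks in run 1 and 8 weeks in run 2, with the tissues of a run taken from the same animals. Age and run cannot be told apart, and single animals cannot be told apart within a library. Blood had been drawn by cardiac puncture, whereas spleens had been dissociated, and red cells had been lysed in suspension, so tissue and preparation cannot be told apart either.

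Neutrophils are short-lived granulocytes that form in bone marrow, lose the transcripts of their granule proteins as they mature, and circulate in blood until they enter tissues or are cleared. The spleen holds a large pool of these cells, kept close to macrophages that clear aged neutrophils and red cells and to B and T cells. Platelets are small anucleate fragments of megakaryocytes that carry RNA of their own and can adhere to neutrophils in blood. A cell suspension from either tissue therefore brings neutrophils together with RNA of its own neighbours, and droplets can take up such RNA.

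In run 1, 879 of 1305 blood neutrophils and 396 of 1133 spleen neutrophils were mature, or 67.4% (95% exact interval 64.7 to 69.9%) and 35% (32.2 to 37.8%). In run 2, 2700 of 3647 blood neutrophils (74.0%, 72.6 to 75.5%) and 1402 of 1955 spleen neutrophils (71.7%, 69.7 to 73.7%) were mature. Intervals here and below cover counting error only. The summed UMIs of the mature cells came to 710638 and 2377046 in blood (runs 1 and 2) and to 381459 and 1152684 in spleen, with a median per cell of 747 and 794 in blood and 902.5 and 750 in spleen. Levels are given as CPM, the UMIs of a gene per 1000000 UMIs of the mature cells of a library. Blood and spleen shared 0 cell barcodes in run 1 and 30 in run 2. The tables of run 1 list only genes with at least 11 UMIs over all cells of a library, so a gene that is not listed there can have up to 10 UMIs in it, and sums over gene lists leave such genes out. Since each tissue had 2 libraries, every value is given by library.

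The marker genes were higher in mature cells than in other neutrophils. Il1b, which encodes the cytokine interleukin-1β, was at 2909 CPM in mature cells of blood in run 1 against 779 CPM in the other neutrophils of that library, and at 2732 against 193 CPM in spleen. In run 2 it was at 4112 against 2829 CPM in blood and at 3975 against 2049 CPM in spleen. Csf3r, the receptor for the growth factor G-CSF, was also higher in mature cells than in other neutrophils in all 4 libraries. These levels describe the gate and were not tested.

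The gate left some variation between libraries. Camp and Ngp, which encode secondary granule proteins and were used in the gate, averaged 0.0474% of UMIs in mature blood cells and 0.205% in mature spleen cells of run 1, and 0.0125% and 0.0208% in run 2. In spleen of run 1, 43 of 396 mature cells had no UMI of either gene, whereas 609 of 879 did in blood of run 1, and 2433 of 2700 and 1176 of 1402 did in blood and spleen of run 2. In that spleen library 33 mature cells lay just inside the limit, at 0.4 to 0.5% Camp and Ngp, and 20 cells just outside it, at 0.5 to 0.6%. In the other 3 libraries 0 to 4 cells lay just inside and 0 to 2 just outside. Near the limit on Retnlg, 107 and 367 mature blood cells and 55 and 194 mature spleen cells (runs 1 and 2) had 1.5 to 2%, and 69, 273, 33 and 149 cells had 2 to 2.5%.

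To ask whether mature neutrophils of spleen differ from those of blood, UMIs were summed per library and spleen was compared with blood by edgeR's quasi-likelihood test with run as a block. Few genes passed the test. Of 4638 genes tested, 7 passed a Benjamini-Hochberg adjusted p of 0.05, which is 0.151% of the genes tested. They were 5 genes higher in spleen (0.108%) and 2 genes lower in spleen (0.0431%). The unadjusted p was under 0.05 for 142 genes, or 3.06%. The median log2 fold change over all genes was 0.01. For 2916 genes, 62.9% of those tested, the 95% interval of the fold change lay within 2-fold either way. Among the 1171 genes at a mean of 100 CPM or more this held for 1113, or 95%, and 0 of the 1171 were called by edgeR (lowest adjusted p = 0.151). Without the block on run, or with DESeq2, 0 genes were called, with an unadjusted p under 0.05 for 16 higher and 14 lower genes without the block and for 13 and 9 with DESeq2.

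The marker genes Il1b and Csf3r did not pass the test, and their intervals lay within 2-fold. For Il1b the fitted log2 fold change of spleen over blood was -0.08 (95% interval -0.76 to 0.59) and for Csf3r it was -0.14 (-0.79 to 0.51). Csf3r in spleen was 0.836 (0.763 to 0.917) of its level in blood in run 1 and 1.01 (0.960 to 1.07) in run 2 by counting error, and at 500 UMIs it was found in 65.3% (62.0 to 68.5%) of blood and 56.8% (51.8 to 61.8%) of spleen cells in run 1 and in 60.1% and 59.6% in run 2. Within runs, Il1b in spleen was 0.939 (0.871 to 1.01) and 0.967 (0.933 to 1.00) of its level in blood by counting error. In cells thinned to 500 UMIs, Il1b was found in 68.2% of mature cells in both tissues in run 1 and in 83.6% of blood and 82.1% of spleen cells in run 2. The unthinned shares were 79.1% in blood and 83.6% in spleen of run 1, and 93.1% and 92.2% in run 2. For comparison, B cells (cells outside the neutrophil gate with at least 3 UMIs of Cd79a and Cd79b) were also thinned, from median depths of 1689.5 and 1452 UMIs. They gave an Il1b UMI in 29.6% of cells in blood and 8.15% in spleen of run 2, and a Csf3r UMI in 15.3% and 3.10%. The gate placed any cell with 3 such UMIs outside it, whatever its S100a8 and S100a9. These cells can therefore include neutrophils caught with a B cell, and the shares are no clean measure of background.

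**Figure D1:**
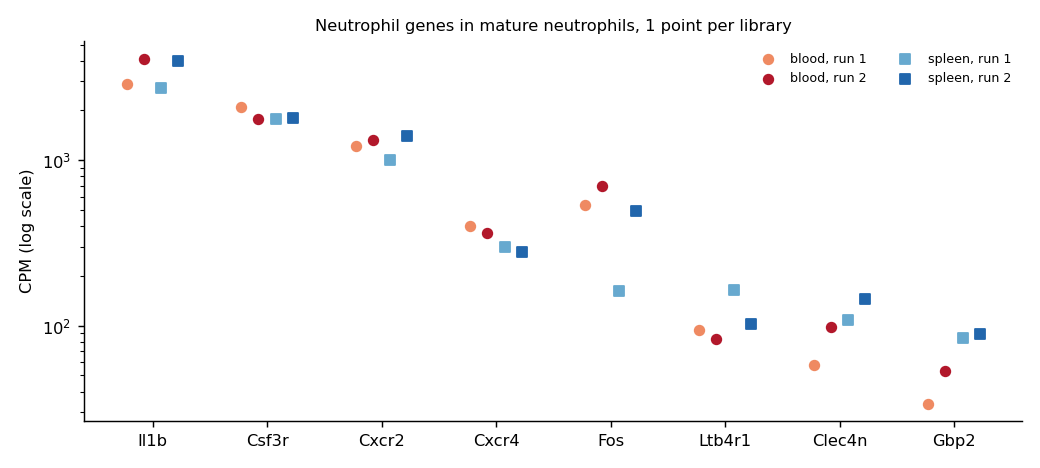
Levels of 8 neutrophil genes in CPM on a log scale, with 1 point for each library of mature neutrophils (circles for blood, squares for spleen, pale for run 1 and dark for run 2). Il1b, Csf3r and Cxcr2 lay close together in the 4 libraries, whereas Fos in spleen of run 1 was at 163 CPM against 494 to 698 CPM in the others.

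The receptors that guide neutrophils between marrow, blood and tissue did not pass the test either. Cxcr2, the receptor for chemokines that draw neutrophils out of marrow, was at 1217 and 1322 CPM in blood and 999 and 1401 CPM in spleen (log2 fold change -0.13, 95% interval -0.78 to 0.53). Cxcr4, which retains cells in marrow and is known to rise as neutrophils age, was at 398 and 364 CPM in blood and 299 and 280 CPM in spleen. The difference in Cxcr4 did not pass the test (-0.41, -0.93 to 0.10). Ltb4r1, the receptor for leukotriene B4, was at 94.3 and 82.9 CPM in blood and 165 and 102 CPM in spleen, with a log2 fold change of 0.49 ± 0.22 (SE) that did not pass the test either. Of the 10 chemoattractant receptors tested, 0 of 10 were called, beside 0.151% of all genes. All 10 had an interval within 2-fold, beside 62.9% of all genes and 95% of those at 100 CPM or more. Of the 8 tested genes of neutrophil ageing, 0 were called, beside 0.151% of all genes, with a median log2 fold change of -0.06.

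Other programmes of mature neutrophils gave no calls. Over all lists of neutrophil genes together, 0 of 238 tested members were called in edgeR's fit, beside 0.151% of all genes, so that a count of 0 is near the background for these lists and says little of them. The median log2 fold change was 0.05 against 0.01 over all genes. An interval within 2-fold was found for 192 of the 238, beside 62.9% of all genes and 95% of those at 100 CPM or more. Intervals were narrower for abundant genes, so this share depends on the levels of the members. By their groups, 0 of 34 type I interferon response genes were called (median 0.11), 0 of 17 pattern recognition and Fc receptors (0.06), 0 of 7 cytokines and chemokines (0.01), 0 of 7 NADPH oxidase genes (0.07), 0 of 16 survival and apoptosis genes (0.06), 0 of 13 adhesion and trafficking genes (-0.01) and 0 of 13 NF-kB subunits and feedback genes (0.00). All 7 tested subunits of the NADPH oxidase, the enzyme of the respiratory burst, had an interval within 2-fold. Tnfsf13b encodes BAFF, a B-cell survival factor. It was at 28.1 and 21.9 CPM in blood and 15.7 and 20.8 CPM in spleen, and the interval of the fold change was wide (-1.15 to 0.48). Of the 7 B-cell helper factors Tnfsf13b and Tgfb1 were tested, and 0 were called.

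**Figure D2:**
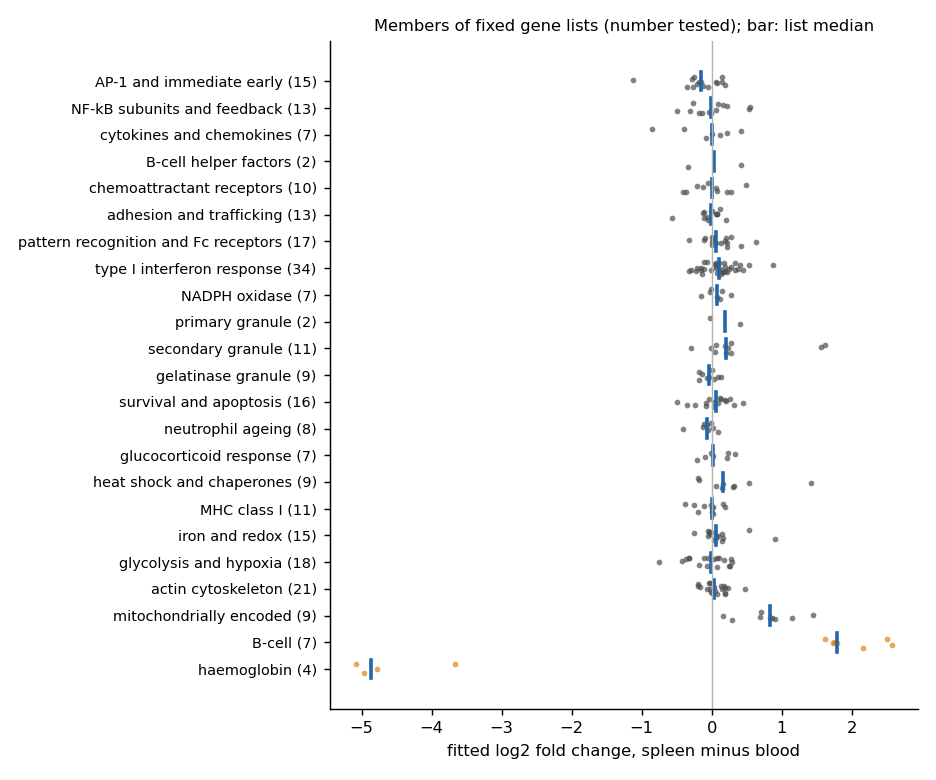
Fitted log2 fold change of spleen minus blood for each tested member (point) of fixed gene lists, with the number tested in brackets and a blue bar at the list's median. Medians of the neutrophil lists lay near 0, apart from mitochondrially encoded genes at 0.83, while B-cell genes lay at 1.79 and haemoglobin genes at -4.87.

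Only 2 genes were called lower in spleen, and both were nearly absent from its mature neutrophils. Ctla2a encodes a cathepsin inhibitor of the cysteine protease propeptide family and lies at chr13:60934155-60936625 on the minus strand (GRCm38, the build called mm10). It was at 124 and 156 CPM in mature blood cells, from 88 and 372 UMIs, and at 0 and 1.74 CPM in mature spleen cells, from 0 and 2 UMIs. Blood exceeded spleen at least 15.7-fold in run 1, taking 3 UMIs as the most that a count of 0 allows, and 90.2-fold (24.8 to 748) in run 2. By edgeR's quasi-likelihood test the adjusted p was 2.25e-06. Tsc22d1, a leucine zipper protein of the TGF-β-stimulated TSC22 family, lies at chr14:76414961-76507765 on the plus strand. It was at 38.0 and 48.0 CPM in blood, from 27 and 114 UMIs, and at 0 and 0.868 CPM in spleen, from 0 and 1 UMIs (adjusted p = 0.000728). This was at least 4.83-fold in run 1 and 55.3-fold (9.72 to 2202) in run 2. Ctla2a was called again when each spleen or blood library was left out in turn (adjusted p from 3.4e-17 to 0.000268), and Tsc22d1 was not called without blood of run 2 (log2 fold change -3.89 against -5.84 in all libraries, adjusted p = 1.00). Neither was called without the block on run or by DESeq2, where the adjusted p was 1.00 and the fitted log2 fold changes were -6.63 and -7.03 for Ctla2a and -5.78 and -6.03 for Tsc22d1. The paralog Ctla2b, which can share reads with Ctla2a, had 5 and 22 UMIs in blood and 0 in spleen of run 2, and was not listed for spleen of run 1.

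Since these genes share their pattern, the 250 bases before the first RefSeq start of each (GRCm38.p6) are given, written 5′ to 3′ on the strand of the gene, at chr13:60936626-60936875 and chr14:76414711-76414960. Capitals mark a match to the AP-1 motif TGACTCA on either strand.
Ctla2a: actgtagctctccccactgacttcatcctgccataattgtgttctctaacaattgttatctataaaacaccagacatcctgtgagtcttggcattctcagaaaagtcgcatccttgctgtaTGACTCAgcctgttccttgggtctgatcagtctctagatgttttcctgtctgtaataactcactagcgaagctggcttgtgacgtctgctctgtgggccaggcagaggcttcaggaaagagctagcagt
Tsc22d1: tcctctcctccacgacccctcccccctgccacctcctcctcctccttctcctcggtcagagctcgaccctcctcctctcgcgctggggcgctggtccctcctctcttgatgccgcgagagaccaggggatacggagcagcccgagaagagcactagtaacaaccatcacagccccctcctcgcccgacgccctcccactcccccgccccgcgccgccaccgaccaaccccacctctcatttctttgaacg
The match in Ctla2a began 129 bases before the start, and 4.46% of the 32851 promoters in the RefSeq table held this motif in the same 250 bases. In the windows of the 5 listed starts of Tsc22d1 no match was found to TGACTCA, to the CRE motif TGACGTCA or to the letters searched for the NF-kB, SRE and interferon (ISRE) motifs. Of all promoters, 1.55% held the CRE, 0.225% the NF-kB, 0.0609% the SRE and 2.98% the ISRE letters on either strand. A match is a stretch of letters and no evidence of binding.

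Platelet genes were detected in blood of both runs and hardly in spleen of run 2. Summed over a list of 12 platelet genes, mature cells were at 142 and 210 CPM in blood, where 8 and 12 of the genes had a UMI, and at 7.81 CPM in spleen of run 2, where 4 did. For spleen of run 1 none of the 12 was listed, which allows up to 10 UMIs, or 26.2 CPM, for each gene. Pf4, which encodes platelet factor 4, was at 52.1 and 79.1 CPM in blood and at 0.868 CPM in spleen of run 2. Ppbp, the precursor of a platelet chemokine, was at 31.0 and 62.3 CPM in blood and at 0.868 CPM in spleen of run 2. Pf4, Ppbp and Gng11 were also unlisted for bone marrow of run 1, and the platelet genes took no part in the test.

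**Figure D3:**
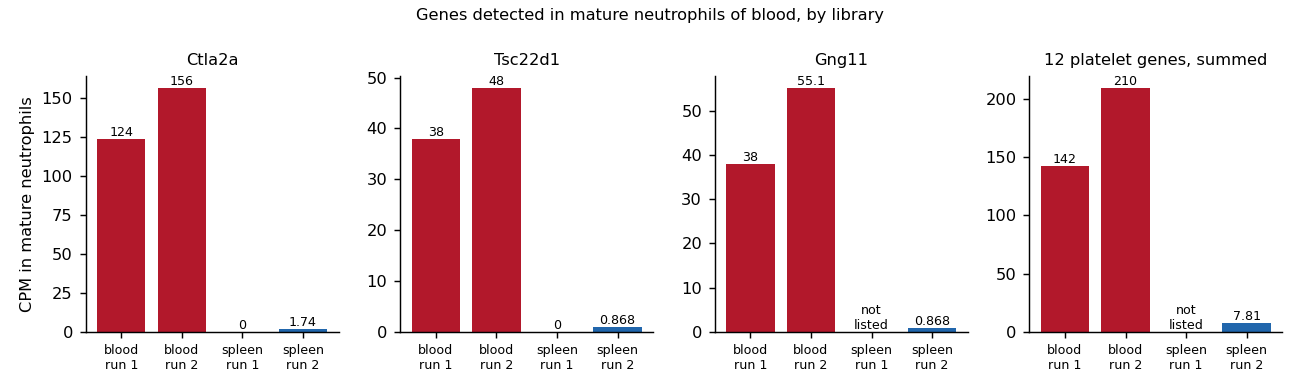
CPM in mature neutrophils of Ctla2a, Tsc22d1, Gng11 and the sum of 12 platelet genes, with a bar for each library (blood red, spleen blue). Each was detected in both blood libraries and was at 7.81 CPM or less in spleen of run 2, and in spleen of run 1 Ctla2a and Tsc22d1 were at 0 while Gng11 and the platelet genes were not listed.

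Within blood, Ctla2a was concentrated in cells that also carried platelet RNA. A UMI of the 12 platelet genes was found in 59 of 879 mature blood cells in run 1 (6.71%) and in 314 of 2700 in run 2 (11.6%), but in 8 of 1402 mature spleen cells of run 2. Blood cells with such a UMI held 45.5% and 41.1% of all Ctla2a UMIs of mature cells and 51.9% and 51.8% of those of Tsc22d1. In run 1 the Ctla2a share was 40 UMIs in 12 cells. There 1 cell held 18 of the 101 platelet UMIs, and the 5 richest cells held 35.6%, against 12.0% in blood of run 2. A Ctla2a UMI was found in 20.3% (11.0 to 32.8%) and 30.3% (25.2 to 35.7%) of blood cells with platelet UMIs and in 5.85% (4.35 to 7.69%) and 7.88% (6.83 to 9.03%) of those without, at median depths of 808 and 824.5 against 737.5 and 791 UMIs. Il1b was at 3109 and 3939 CPM in cells with platelet UMIs and at 2893 and 4136 CPM in those without. Of B cells in blood of run 2, 14.3% had a Ctla2a UMI, or 3.06% at 500 UMIs a cell, against 10.5% and 6.78% of mature neutrophils. Outside the neutrophil gate Ctla2a was at 188 and 78.8 CPM in blood and at 65.4 and 22.5 CPM in spleen. Tsc22d1 was at 129 and 37.0 CPM in such cells of blood and at 50.3 and 22.1 CPM in those of spleen. The Ctla2a level in spleen of run 1 came from 13 UMIs, and no platelet gene was listed for that library. In blood cells without platelet UMIs Ctla2a was at 72.8 and 105 CPM, against 1.75 CPM in such cells of spleen in run 2. When all cells with a platelet UMI were left out, an alternative added after seeing the data that removes no cell from spleen of run 1, Ctla2a (log2 fold change -6.04) and Tsc22d1 (-4.90) were still called by edgeR, with adjusted p = 1.07e-08 and 0.00239.

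The ratio of Ctla2a to platelet UMIs was compared between classes of cells in blood. For each UMI of the platelet genes there were 0.871 (0.647 to 1.17) UMIs of Ctla2a in mature neutrophils of run 1, 1.08 (0.723 to 1.61) in the other neutrophils and 0.710 (0.554 to 0.907) in cells outside the neutrophil gate. In run 2 the ratios were 0.747 (0.651 to 0.856), 0.948 (0.751 to 1.2) and 0.673 (0.560 to 0.809). All intervals for Ctla2a of a run overlapped. For Tsc22d1 the ratios were 0.267 (0.168 to 0.412) and 0.229 (0.185 to 0.281) in mature neutrophils (runs 1 and 2), and 0.488 (0.368 to 0.642) and 0.316 (0.248 to 0.401) outside the gate. In spleen of run 2 the ratio for Ctla2a was 0.222 (0.0234 to 1.07) in mature neutrophils, from 2 and 9 UMIs, and 3.10 (2.05 to 4.80) in cells outside the gate. Whether the transcripts of Ctla2a and Tsc22d1 in mature blood cells came from platelets was not tested.

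**Figure D4:**
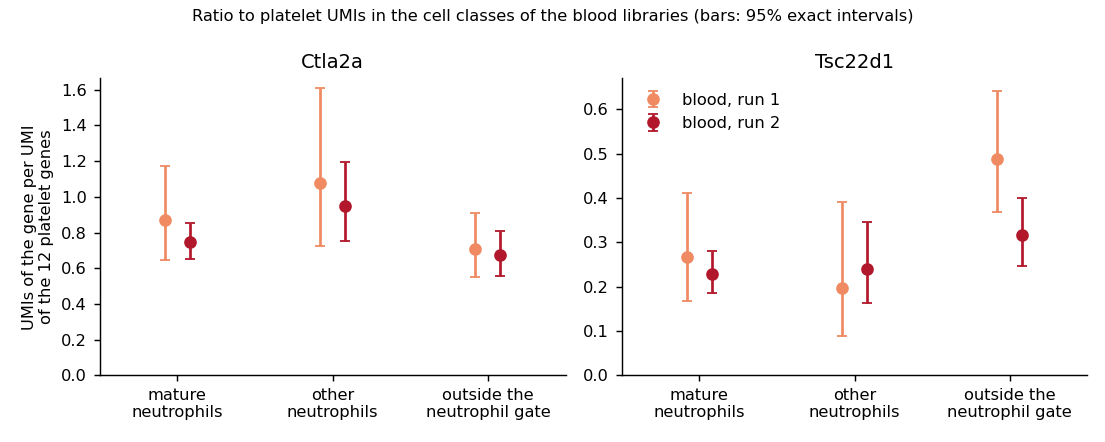
UMIs of Ctla2a (left) and Tsc22d1 (right) for each UMI of the 12 platelet genes in 3 classes of cells of the blood libraries, with 95% exact intervals for counting error (pale for run 1, dark for run 2). For Ctla2a the ratios ran from 0.673 to 1.08, and the intervals of each run overlapped.

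The 5 genes called higher in spleen all carried a mark of RNA from other cells. A gene was given this mark where it belonged to the haemoglobin, platelet, B-cell, T-cell, NK-cell or red pulp macrophage list, or where, in the tissue in which it was higher, its CPM outside the neutrophil gate was at least 5 times that in mature cells of the same library in both runs. In all, 188 of the 4638 genes carried the mark, and 178 of them were higher in spleen. Outside the gate, haemoglobin genes were at 187246 and 791950 CPM in blood (runs 1 and 2) and at 12070 and 181 CPM in spleen. This lowers the CPM of other genes outside the gate in blood, so the mark was harder to reach there. The split by tissue is therefore no result, and the mark is a rule on levels and no measure of carried-over RNA. Rpl3, Rpl12 and Rpl10a encode proteins of the large ribosomal subunit. Rpl3 was at 2.81 CPM in blood and 7.86 CPM in spleen of run 1, from 2 and 3 UMIs, and at 74.5 and 291 CPM in run 2 (adjusted p = 0.00136 by edgeR). The within-run ratios of spleen over blood were 2.79 (0.320 to 33.5) and 3.90 (3.24 to 4.71), so the difference rested on run 2. Rpl12 and Rpl10a showed the same, with 1 or 2 UMIs per tissue in run 1 and ratios of 4.43 (3.34 to 5.92) and 4.30 (3.35 to 5.56) in run 2. In the 2398 cells of spleen of run 2 outside the neutrophil gate, Rpl3 was at 3716 CPM. Levels of these genes were higher in run 2 than in run 1 in both tissues, and such genes have many near-identical pseudogene copies, so their counts are uncertain. All 3 lost the call without spleen of run 2 and without either blood library (Rpl3 adjusted p = 1.00, 0.164 and 1.00 by edgeR). The log2 fold change of Rpl3, 1.86 in all libraries, was 1.07 without spleen of run 2 and 1.79 and 1.87 without blood of runs 1 and 2. That of Rpl10a went from 1.97 to 0.16 without spleen of run 2, and that of Rpl12 from 2.04 to 1.13 without spleen of run 2 and to 0.71 without blood of run 2.

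The other 2 genes called higher in spleen are expressed by B cells. H2-Eb1, a chain of the class II molecule that presents antigen, was at 11.3 and 23.6 CPM in blood and 7.86 and 141 CPM in spleen (runs 1 and 2, adjusted p = 0.0206). Ly6d, a surface protein of B-lineage cells, was at 2.81 and 10.5 CPM in blood and 0 and 72.9 CPM in spleen (adjusted p = 0.0138). In run 1 neither was higher in spleen. With only the blood and spleen libraries fitted, Ly6d did not pass the filter on low counts and was not tested. Without blood of run 2 the fitted log2 fold change turned to -1.15 for H2-Eb1 and -0.12 for Ly6d, and without spleen of run 2 to -4.16 for Ly6d. Of the 18 B-cell genes 7 were tested and 2 called, beside 0.108% of all genes, with a median log2 fold change of 1.79. The list holds Cd79a and Cd79b, which the gate had limited, and without them 6 of 16 genes were tested, 2 called and the median was 1.76. The most abundant of them, Cd74, the invariant chain of class II, was at 46.4 and 189 CPM in blood and at 89.1 and 964 CPM in spleen and was not called (adjusted p = 0.731 by edgeR). It was called with only the blood and spleen libraries fitted (adjusted p = 0.00145), without blood of run 1 (0.0259) and with no filter on low counts (0.0117). Summed, the B-cell list was at 125 and 584 CPM in blood and at 139 and 2947 CPM in spleen, where 6 and 18 of its genes had a UMI. In spleen of run 2, 1128 of 1402 mature cells (80.5%) had a UMI of a B-cell gene, and the 5 richest cells held 17.6% of these UMIs. In spleen of run 1, 1 cell held 17 of the 53 UMIs, and without the richest cell of each library, an alternative added after seeing the data, the sum in run 1 was 94.7 CPM in spleen against 121 CPM in blood, while in run 2 it was 2707 against 546 CPM. T-cell genes were also highest there, at 280 CPM against 28.8 to 32.4 CPM in the other 3 libraries. The part of this RNA in the calls was not tested.

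**Figure D5:**
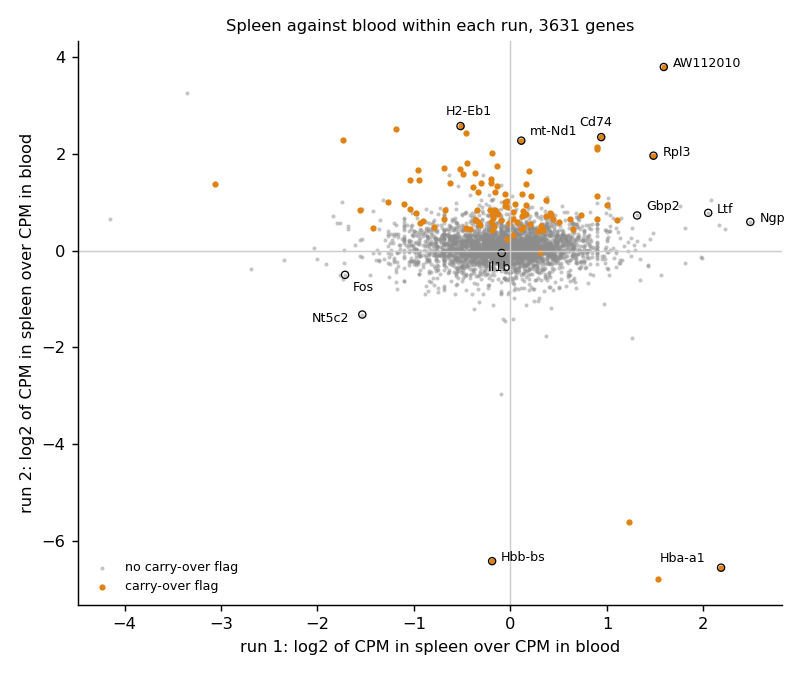
Log2 of CPM in spleen over CPM in blood in run 1 (horizontal) and run 2 (vertical) for 3631 genes with UMIs in all 4 libraries and a mean of at least 20 CPM, with the 101 genes that carry the mark of RNA from other cells in orange. Most genes sat around 0 in both runs, the marked genes spread upward in run 2, and haemoglobin genes lay far down in run 2 alone, while Ctla2a, Tsc22d1, Ly6d and Cd79a had a count of 0 and are not shown.

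Haemoglobin RNA differed most in run 2. Summed over the list, mature cells were at 775 CPM in blood and 1232 CPM in spleen of run 1 and at 38399 and 437 CPM in run 2. Hbb-bs, a β-globin gene, was at 550 and 482 CPM in blood and spleen of run 1 and at 17123 and 200 CPM in run 2. All 2700 mature blood cells of run 2 had a haemoglobin UMI, against 44.5% of mature blood cells in run 1 and 5.81% and 8.92% of those in spleen. In spleen of run 1, 1 cell held 437 of the 470 haemoglobin UMIs. Leaving out the richest cell of each library, an alternative added after seeing the data, gave 769 CPM in blood and 86.8 CPM in spleen of run 1 and 36348 and 294 CPM in run 2, with spleen below blood in both runs. The 4 tested genes of the list had a median log2 fold change of -4.87, and 0 were called, beside 0.151% of all genes. Hbb-bs was called lower in spleen without spleen of run 1, spleen of run 2 or blood of run 1 (adjusted p = 1.11e-08, 0.0441 and 1.14e-16 by edgeR), with no filter on low counts (3.24e-19) and without cells with platelet UMIs (0.00102). Hba-a1, an α-globin gene, had a log2 fold change of -4.77 in all libraries, and of -5.71 and -6.96 without spleen and without blood of run 1. It was called lower in spleen by edgeR with no filter on low counts (adjusted p = 6.61e-14) and without cells with platelet UMIs (0.0460). Without blood of run 2 its log2 fold change turned to 2.58. That fit kept only blood of run 1, and spleen of run 1 held the cell with 437 haemoglobin UMIs. Bpgm, a red cell enzyme, was at 33.2 CPM in blood of run 2 and at 4.34 CPM or less in the other 3 libraries.

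Genes of red pulp macrophages, the resident macrophages that clear red cells in spleen, gave UMIs in spleen cells to differing extents. C1qa, C1qb and C1qc, which encode the chains of complement component C1q and were picked from the list after their values were seen, gave 42 and 31 UMIs in mature spleen cells (runs 1 and 2). They were not listed for blood of run 1 and gave 1 UMI in mature blood cells of run 2. They lay in 8 of 396 and 10 of 1402 spleen cells, and the 5 richest cells held 90.5% and 83.9% of them. C1qb was at 47.2 and 7.81 CPM in spleen. It was at 0 in blood of run 2, where spleen was at least 6.19-fold higher taking 3 UMIs as the limit, while the listing of run 1 allows up to 14.1 CPM in blood. These genes were not in the test. Of the other genes of the list of 8, Vcam1, an adhesion molecule also named after its values were seen, had 7 and 12 UMIs in spleen and 2 UMIs in blood of run 2, and was not listed for blood of run 1. In run 2, Cd5l and Axl had UMIs in spleen and 0 in blood, and Spic had 0 in spleen. Slc40a1, the iron exporter ferroportin, which was on the same list, was at 608 and 512 CPM in blood and 752 and 505 CPM in spleen (log2 fold change 0.14, -0.50 to 0.79).

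Among granule genes that the gate had not used, Ltf and Chil3 had the largest differences, and neither passed the test. Ltf, which encodes lactoferrin, was at 50.7 and 10.1 CPM in blood and at 210 and 17.4 CPM in spleen (log2 fold change 1.62 ± 0.43 SE, adjusted p = 0.272). Chil3, a chitinase-like protein of immature neutrophils, was at 21.1 and 8.83 CPM in blood and 89.1 and 18.2 CPM in spleen (1.57 ± 0.44, adjusted p = 0.352). Both genes were higher in spleen in each run, at 4.14-fold (2.76 to 6.32) and 1.72-fold (0.900 to 3.25) for Ltf. Without spleen of run 2 both were called by edgeR (adjusted p = 0.000525 and 0.0144), as they were with no filter on low counts (5.97e-05 and 0.00653). Ltf was also called with only the blood and spleen libraries fitted (0.0496) and without cells with platelet UMIs (0.0356), and Chil3 with no maturity gate (0.0160). Without spleen of run 1 their log2 fold changes dropped to 0.17 and 0.63. Beside them stood the gate genes Camp, at 274 and 52.2 CPM in blood and 931 and 98.9 CPM in spleen, and Ngp, at 200 and 72.4 CPM in blood and 1119 and 109 CPM in spleen, which the rule had used. Of the 11 secondary granule genes tested 0 were called (median 0.20), beside 0.151% of all genes. Of the 9 gelatinase granule genes, which mature cells express, 0 were called. These counts of 0 are near the background and say little of the lists. All 9 gelatinase granule genes had an interval within 2-fold, beside 62.9% of all genes and 95% of those at 100 CPM or more.

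Fos, a subunit of the transcription factor AP-1 that is induced within minutes of stimulation, was at 533 and 698 CPM in blood and at 163 and 494 CPM in spleen. Blood exceeded spleen 3.28-fold (2.5 to 4.36) in run 1 and 1.41-fold (1.29 to 1.56) in run 2. The fitted difference of -1.13 ± 0.34 (SE) did not pass edgeR's test (adjusted p = 0.457). At 500 UMIs a cell, Fos was found in 19.8% (17.2 to 22.6%) of mature blood cells and 6.82% (4.54 to 9.77%) of mature spleen cells in run 1 and in 26.5% (24.9 to 28.2%) and 19.5% (17.5 to 21.7%) in run 2. Without thinning, run 1 had 27.8% of blood and 11.9% of spleen cells with Fos, and run 2 had 40.4% and 28.5%. B cells, which can include neutrophils caught with a B cell, gave 9.18% in blood and 1.01% in spleen of run 2 at the same depth. The other immediate early genes did not share this size of difference. Of 15 tested, Fos among them, 0 were called, beside 0.151% of all genes, and the median was -0.15. After Fos the largest fall was that of Ier3 (-0.36). An interval within 2-fold was found for 14, beside 62.9% of all genes and 95% of those at 100 CPM or more. Without blood of run 1 the difference of Fos was -0.41, and without blood of run 2 it was -1.85.

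Counted with no test, 95 genes (2.05% of those tested) were at least 1.5-fold higher in spleen in both runs and 51 (1.1%) at least 1.5-fold lower. Of the 95 genes, some had no mark of other cells, were not used in the gate and reached 20 CPM in spleen in both runs. Among these, Gbp2, which encodes an interferon-induced guanylate-binding protein, had the lowest p. It was at 33.8 and 53.4 CPM in blood and 83.9 and 88.5 CPM in spleen, a log2 fold change of 0.87 ± 0.27 (SE, adjusted p = 0.574). Its fold change was 0.46 with the stricter gate and 0.07 with no maturity gate. At 500 UMIs a cell, Gbp2 was found in 2.1% (1.25 to 3.30%) of blood and 1.77% (0.714 to 3.61%) of spleen cells in run 1, so that the direction seen in CPM was not seen there, and in 2.30% (1.76 to 2.93%) and 4.56% (3.53 to 5.79%) in run 2. Without thinning, run 1 had 2.62% of blood and 4.80% of spleen cells with Gbp2, and run 2 had 3.78% and 6.28%. Of the 34 interferon genes, 1 was 1.5-fold higher in both runs. Clec4n, encoding the fungal receptor dectin-2, did not reach 1.5-fold in run 2 (1.47-fold) and was at 57.7 and 98.0 CPM in blood and 107 and 144 CPM in spleen (0.64 ± 0.25). Prdx1, an antioxidant peroxiredoxin, was at 18.3 and 31.1 CPM in blood and 36.7 and 59.9 CPM in spleen (0.91 ± 0.32), and it carried the mark of other cells. Cyb5r3, a cytochrome b5 reductase, was at 31.0 and 18.1 CPM in blood and 57.7 and 35.6 CPM in spleen. Sar1b, a GTPase of vesicle transport, was at 29.6 and 27.8 CPM in blood and 60.3 and 46.0 CPM in spleen. Hdgf, a heparin-binding growth factor, was at 16.9 and 18.5 CPM in blood and 34.1 and 36.4 CPM in spleen. Gbp2, Cyb5r3, Sar1b and Hdgf were named because they were at least 1.5-fold higher in spleen in both runs, so their direction follows from that choice.

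Among genes lower in spleen in both runs, Nt5c2, a cytosolic nucleotidase, was at 38.0 and 28.2 CPM in blood and 13.1 and 11.3 CPM in spleen (log2 fold change -1.42 ± 0.41 SE, adjusted p = 0.352). The spleen counts behind it were 5 and 13 UMIs, and with no maturity gate the difference was -0.33. Ppp1r9b, the actin-binding scaffold spinophilin, was at 71.8 and 49.2 CPM in blood and 31.5 and 31.2 CPM in spleen. Irf2bp2, a corepressor of the interferon regulatory factor IRF2, was at 81.6 and 52.2 CPM in blood and 44.6 and 31.2 CPM in spleen. Ccl9, a CC chemokine, was at 31.0 and 21.9 CPM in blood and 18.4 and 12.1 CPM in spleen (-0.85 ± 0.43). None of these 4 genes passed the test in edgeR's fit. Nt5c2, Ppp1r9b and Irf2bp2 were named because they were at least 1.5-fold lower in spleen in both runs, so their direction follows from that choice.

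Mitochondrially encoded transcripts were high in spleen of run 2. They made up 0.531% of UMIs of its mature cells, against 0.246% in blood of run 2 and 0.122% and 0.102% in blood and spleen of run 1, and 15 of its 1402 mature cells exceeded 5%, against 0 in the other 3 libraries. mt-Nd1, a subunit of respiratory complex I, was at 114 and 58.1 CPM in blood and at 123 and 281 CPM in spleen (log2 fold change 1.44 ± 0.40 SE, adjusted p = 0.352). Of the 9 mitochondrial genes tested 0 were called, beside 0.151% of all genes, with a median of 0.83, and 1 was higher in spleen in both runs. mt-Nd1 also carried the mark of other cells. Without spleen of run 2 the difference of mt-Nd1 was -0.062.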

How the data were processed

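The authors' deposited tables hold UMI counts per gene and cell for each library. Per the labels these were made with Cell Ranger on mm10, and the study's methods name version 1.2.0 for run 1 and 2.1.0 for run 2. The members and gene lists were chosen with earlier results of these data known. The gates named above were applied to all deposited cells, with no doublet caller, and UMI counts were summed per library over mature cells. Bone marrow held 24 and 71 such cells. The 6691 genes listed in all 6 healthy libraries entered edgeR (4.0.16, R 4.3.3) with filterByExpr, TMM factors and glmQLFit with run and tissue as terms, which left 4638 genes. The bone marrow libraries entered to share the estimates of spread and run, and they also took part in the filter on low counts and in the TMM factors. Standard errors are the fold change divided by the root of the F statistic. Run was the block because its tissues shared their mice per the methods, and deviations from tissue means correlated between libraries of a run at 0.652, 0.286 and 0.263 over 4638 genes. On counts simulated for spleen against blood, 38.5% of 2-fold and 91.0% of 4-fold changes were recovered over 4638 genes. P-values cover the spread between these libraries of pooled mice. Named were up to 12 unmarked genes in each direction at 20 CPM or more (called, or else lowest p and 1.5-fold in both runs), up to 4 lowest-p members of each list, up to 6 marked genes in each direction, Il1b, Csf3r and the gate genes. Ctla2b, the platelet and C1q genes, Cd74 and the list totals were chosen after their values were seen. Alternatives covered the block, the libraries fitted, DESeq2 (1.42.0), RLE factors, filters, gates, cell quality and carried-over genes. The inflammation library was not used here, and not every gene that the rule named is reported here. Annotation came from GENCODE vM21 and promoters from RefSeq.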

Additional observations from a re-analysis of the deposited data

Results flagged for a closer look

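The summed haemoglobin list differed between runs in its direction. The log2 of spleen over blood was 0.668 in run 1 and -6.46 in run 2. The sign in run 1 rested on 1 spleen cell with 437 of the 470 UMIs, and without the richest cell of each library spleen of run 1 was at 86.8 CPM against 769 CPM in blood. With 1 library of each tissue per run the difference between runs was not tested.

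Genes outside the main fit, because a library of run 1 did not list them, gave signal in mature neutrophils. The platelet list was at 142 CPM and 210 CPM in blood of runs 1 and 2, where spleen of run 1 did not list them and spleen of run 2 had 7.81 CPM. C1qa, C1qb and C1qc together were at 110 CPM and 26.9 CPM in spleen of runs 1 and 2, where blood of run 1 did not list them and blood of run 2 had 1 UMI. Mature bone marrow cells of run 1 held 10 UMIs of them in 3 of 24 cells.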

How the results depend on the processing

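The main counts were 5 genes higher and 2 lower in spleen. Higher and lower calls came to 0 and 0 without the replicate block and with DESeq2, 9 and 2 with only blood and spleen libraries, 25 and 9 with no filter on low counts, 17 and 2 with the stricter gate, 32 and 4 with no maturity gate, 4 and 14 without carried-over genes, 7 and 6 with unlisted genes as 0, 1 and 2 with them as 10, and 18 and 7 without cells with platelet UMIs. Leaving out a spleen or blood library gave 1 to 14 higher and 2 to 7 lower. Calls within lists of other cell types, 2 in the main fit, were 0 without the replicate block, with DESeq2, with no maturity gate, without carried-over genes and with unlisted genes as 10, 1 with the cell quality filter, 4 with the stricter gate, 11 with no filter, 7 with unlisted genes as 0, 9 without cells with platelet UMIs and 1 to 9 leaving out a library. Calls within neutrophil lists, 0 in the main fit, were 1 with only blood and spleen libraries, with the stricter gate and with the cell quality filter, 4 with no filter, 3 with no maturity gate, 2 without cells with platelet UMIs and 0 to 2 leaving out a library. Under the stricter gate the mature share was 46.1% and 49.4% in blood and 15.3% and 45.8% in spleen. The causes of these shifts were not tested.

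Signs turned for named genes as follows. With no maturity gate Slc40a1 was at -0.32 and Tnfsf13b at 0.54. Leaving out a library gave ranges of -4.16 to 2.71 for Ly6d (also -0.12 without blood of run 2, lowest without spleen of run 2), -1.15 to 2.58 for H2-Eb1, -6.88 to 0.34 for Hbb-bs and -6.96 to 2.58 for Hba-a1 (each at its end of opposite sign without blood of run 2), -0.42 to 0.17 for Il1b (above 0 without spleen of run 2 and, at 0.13, without blood of run 1), -0.32 to 0.055 for Csf3r and -0.37 to 0.14 for Cxcr2 (above 0 without blood of run 1), -0.062 to 2.35 for mt-Nd1 (lowest without spleen of run 2) and -0.33 to 0.53 for Slc40a1 (lowest without spleen of run 1). Of all values of named genes under the alternatives, 440 kept direction and call, 34 lost the call, 31 gained it and 13 changed sign. Leaving out all cells with a UMI of a haemoglobin, platelet or B-cell gene was not run, since all 2700 mature blood cells of run 2 carried a haemoglobin UMI. At this depth a count of 0 allows up to 4.22 and 1.26 CPM in blood and 7.86 and 2.60 CPM in spleen, and most 2-fold changes would not be called. The platelet-free fit and the values for unlisted genes were chosen after seeing the data.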

Other observations

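Mature cells of bone marrow, which entered no comparison, numbered 24 in run 1 and 71 in run 2. Ctla2a had 7 and 0 UMIs in them, the 7 in 1 cell, and the platelet genes listed had 0 in both, Il1b was at 785 and 1983 CPM and Csf3r at 891 and 1078 CPM. Fos had 2 and 30 UMIs, at 42.4 and 305 CPM. Slc40a1 was at 233 and 356 CPM. Camp was at 1124 and 1027 CPM, above all 4 libraries of blood and spleen.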
